A study of Mus musculus with 18 samples.

Results

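The genes described here are 10 genes of the antioxidant defence of the liver, namely Nqo1, Gclc, Gclm, Srxn1, Txnrd1, Hmox1, Sod1, Sod2, Cat and Gpx1. They were chosen by symbol out of 52230 genes with a transcript in the deposited tables. The rule used no measured value, but earlier results of these data were known when it was made. All 10 passed the filter on low counts (at least 10 counts in at least 4 libraries) and were among the 10938 genes tested. The libraries were RNA sequencing of liver from 18 mice of the GCKR-P446L-EMI-B6N line, 1 library per mouse, all on standard chow. GKRP, the product of Gckr, is the regulatory protein that binds glucokinase in the hepatocyte nucleus. The mice carried either the wild-type proline (PP) or a knock-in leucine (LL) at residue 446 of GKRP in every tissue, and the PP groups held 4 males and 5 females, the LL groups likewise 4 males and 5 females. The age label was 9 to 14 weeks for male PP and female PP mice, 13 to 14 weeks for male LL and 11 to 14 weeks for female LL mice, whereas the series design gives a single age of 14 weeks. The study describes the wild-type mice as litter mates of the LL mice, but which of these mice shared a litter or cage was not given. P values measure the spread between these mice and do not allow for shared litters.

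The transcription factor NRF2, the product of Nfe2l2, is held in the cytoplasm and marked for degradation by KEAP1. Oxidants and electrophiles release it to the nucleus, where with small MAF proteins it binds antioxidant response elements, at which BACH1 competes with it. Nqo1, Gclc, Gclm, Srxn1, Txnrd1 and Hmox1 are textbook targets of this pathway, whereas Sod1, Sod2, Cat and Gpx1 encode enzymes that remove superoxide and hydrogen peroxide and are abundant in hepatocytes under basal conditions. The liver is exposed to peroxides from peroxisomal and mitochondrial fatty acid oxidation and from cytochromes P450.

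The antioxidant response element has a short core, which was searched in the promoters to show where the letters lie in the genes described below. The searched cores were TGACNNNGC and TGAGNNNGC, on both strands, from 1000 bases before to 50 bases after the start of the canonical transcript (GRCm39, GENCODE M39). The 2 cores cannot both match at the same position, but their matches can overlap. TGACNNNGC was found in the promoters of 5 of the 10 genes (Gclm, Sod1, Sod2, Srxn1 and Txnrd1) and in 30.4% of all 21757 promoters. TGAGNNNGC was found in 3 of the 10 (Hmox1, Nqo1 and Srxn1) and in 41.9% of all promoters. Either core was present in 7 of 10 promoters, against 59.1% of all, so that these letters alone do not set the genes apart. The matches for the 2 genes with a differential call below (Nqo1 and Sod1) and for 3 textbook targets are shown with 6 flanking bases, 5′ to 3′ on the strand of the match, with the core in capitals.
Nqo1: tcacagTGAGTCGGCaaaatt
Sod1: tgtcacTGACTTTGCacagcg
Gclm: gagagtTGACGGTGCgcccgg
Hmox1: cccagcTGAGCCGGCgttctc
Srxn1: tcacccTGAGTCAGCggccgg

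The Nqo1 match lies at chr8:108130259-108130279 on the strand of the gene, centred 335 bases before the start, and the Srxn1 match at chr2:151947393-151947413, also on the strand of the gene, 41 bases before the start. The other 3 lie on the strand opposite the gene, the Sod1 match at chr16:90017307-90017327 and 91 bases before the start, the Gclm match at chr3:122039066-122039086 and 50 bases before it, and the Hmox1 match at chr8:75820175-75820195 and 56 bases before it. Srxn1 had 3 matches to TGAGNNNGC and 1 to TGACNNNGC, the most of the 10. Cat, Gclc and Gpx1 had none in this window.

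The 10 genes fell into levels that were far apart. Levels between genes are compared as TPM, a length-scaled share of all transcripts, which allows for transcript length. Over the 18 livers, median TPM was 1841 for Gpx1 (range 939.2 to 3100), 1525 for Sod1 (557.8 to 2234) and 753.7 for Cat (479.9 to 1033). These 3 enzymes were followed by Gclm at 84.21, Sod2 at 76.38, Gclc at 22.11 and Txnrd1 at 16.13 TPM. Srxn1, Hmox1 and Nqo1 were lowest, at 6.6, 4.849 and 3.94 TPM, and Nqo1 ranged from 1.13 to 6.181 TPM. Most of the Gclm and Sod2 TPM lay on transcripts shorter than the canonical one. The canonical transcripts ranged from 3.637 to 11.983 TPM for Gclm and from 3.661 to 12.331 for Sod2, against 9.845 to 40.33 for Gclc. Sod2-207, a transcript without a defined coding sequence, held 40.148 to 82.232 TPM. The places of Gclm and Sod2 above Gclc therefore hold for the gene sums only.

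Some neighbours in this order were not separated. Gclm was above Sod2 in 11 of 18 libraries and Srxn1 above Hmox1 in 13, whereas Cat was above Gclm, Sod2 above Gclc and Txnrd1 above Srxn1 in all 18. With the normalized count per kilobase of the canonical transcript in place of TPM, Sod1 came first (5707) and Gpx1 second (5380), with that order in 11 of 18 libraries, and Gclm moved from the 4th to the 7th place. The canonical Gclm transcript has 5589 bases, but shorter transcripts of the gene carried part of its count. TPM values are not used below to compare groups, because on that scale the median log2 difference over all tested genes was 0.50 between female PP and male PP mice and 0.21 between male LL and male PP mice. Groups are compared with normalized counts, which are estimated counts divided by the size factor of the library.

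**Figure D1:**
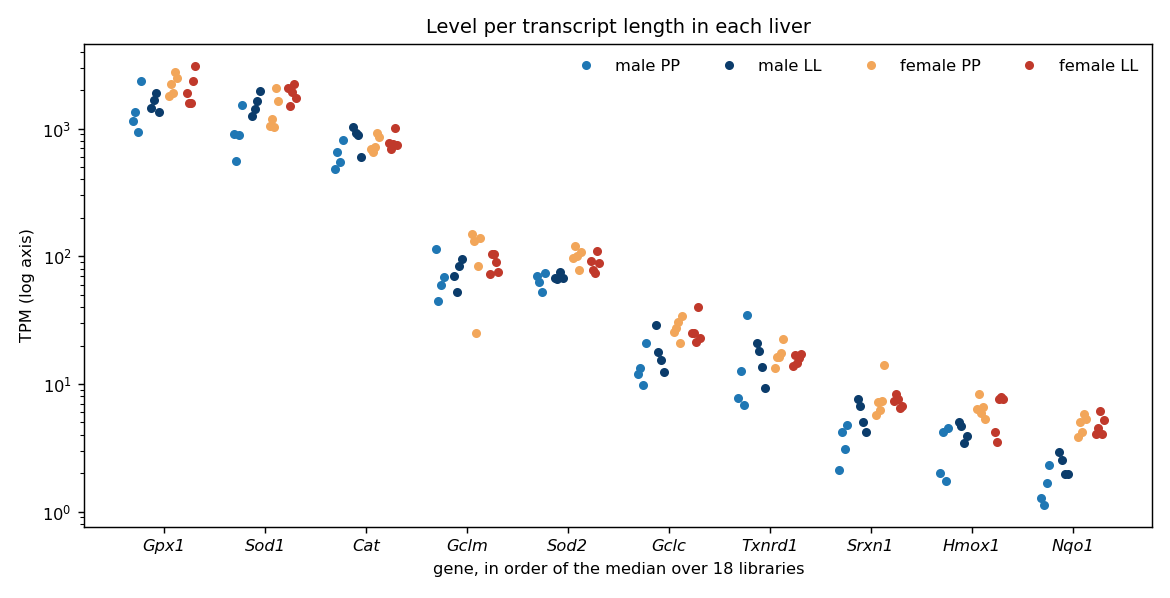
TPM (log axis) of the 10 genes in each of the 18 livers, in order of the median, coloured by group. Gpx1, Sod1 and Cat lie above the other 7 genes in all libraries, and Nqo1 is lowest at a median of 3.94 TPM.

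The libraries held 3794671 to 6613905 estimated counts. The counts per library reached from 7980 to 15430 for Cat but only from 12 to 62 for Nqo1 and from 20 to 77 for Hmox1, so that differences in the last 2 genes carry the largest counting error. Properties of the female libraries differed by genotype. Fragment length, taken from the effective transcript lengths, averaged 447.7 ± 107.9 bases for the female PP libraries and 291.5 ± 52.13 bases for the female LL libraries (SD, n = 5 each, two-sided exact permutation p = 0.0159), against 518.0 ± 95.75 and 406.8 ± 155.7 bases for the male PP and LL libraries (SD, n = 4 each, exact permutation p = 0.286). Mitochondrial transcripts held 10.18% ± 1.106 of the counts in female PP and 12.47% ± 1.341 in female LL libraries (SD, n = 5 each, exact permutation p = 0.0317). The hepatocyte markers were present in all libraries, all 6 of 6 tested. Cholangiocyte markers (0 of 4 tested) summed to at most 10.8 and neutrophil markers (0 of 2 tested) to at most 11.88 normalized counts per library. Because the samples are whole liver, fewer cells of a type and less RNA per cell cannot be told apart.

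The first question was whether LL genotype altered these genes in males. A differentially expressed gene (DEG) is one with an adjusted P under 0.05 by DESeq2 whose fold change also reached 1.3 upwards or 0.7 downwards. None of the 10 genes was a DEG between male LL and male PP mice (0 of 10, against 0.283% of all genes tested). By DESeq2, 0 of the 10 had an unadjusted p below 0.05, against 7.81% of all genes, and edgeR also called 0. For none of the 10 did the LL and PP values lie apart without overlap (0 of 10, against 4.07% of all genes). The log2 fold changes ran from -0.28 for Gpx1 to 0.27 for Sod1, with a median of 0.12 (all genes 0.00). The 95% interval was widest for Nqo1, from -0.42 to 0.71, so that a change of either sign within these limits is compatible with the counts of this gene.

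In females, LL genotype went with a higher count of Sod1 and with no other DEG among the 10 genes (1 of 10, against 0.658% of all genes tested). Sod1 (ENSMUSG00000022982, chromosome 16, 90017408 to 90027657, GRCm39) encodes the cytosolic copper and zinc superoxide dismutase, which turns superoxide into hydrogen peroxide. The 5 female PP livers had 2743, 2874, 3074, 3588 and 2680 normalized counts and the 5 female LL livers 5033, 3791, 3980, 5343 and 4455. The lowest LL value lay above the highest PP value, where 2.66% of all genes tested had no overlap in this comparison (either direction). The mean was 4520 ± 664.9 in female LL against 2992 ± 365.9 in female PP mice (SD, n = 5 each), a log2 fold change of 0.60 ± 0.14 (SE, 95% interval 0.32 to 0.87, DESeq2 adjusted P = 0.00581).

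Fragment length moved with this difference. Sod1 has a mean transcript length of 647 bases, and Sod1-201, the 641-base transcript, held 98.0% of its count on average. Among the 1123 tested genes with a mean transcript length below 800 bases the median log2 fold change in female LL mice was 0.25, and 13.4% of them had a value of at least that of Sod1. Among the 1900 genes with transcripts of 4000 bases or more the median was -0.16. The female PP and LL libraries closest in fragment length were female PP 2, with 383.5 bases and 2874 Sod1 counts, and female LL 3, with 376.5 bases and 3980 counts. The next was female PP 4, with 368.9 bases and 3588 counts.

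With fragment length as a term in the fit, the Sod1 log2 fold change was 0.52 with a DESeq2 adjusted P of 0.297, and with an offset for average transcript length it was 0.56 with an adjusted P of 0.448. edgeR gave 0.59 with an adjusted P of 0.167. The direction was the same under all 30 alternatives, from 0.48 to 0.67, and 8 of them gave an adjusted P above 0.05, including those without female LL 1 (0.0534), female LL 4 (0.0514) and female PP 5 (0.0564).

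**Figure D2:**
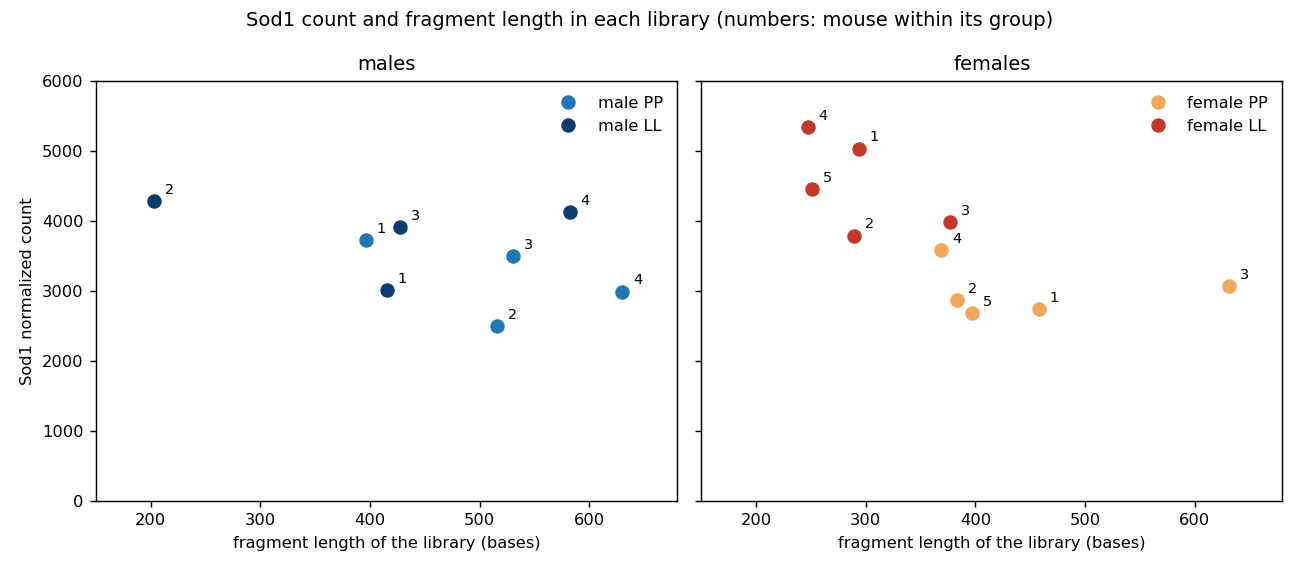
Sod1 normalized count against the fragment length of the library in bases, for males (left) and females (right), 1 point per mouse with its number in the group. All 5 female LL points lie above the 5 female PP points, and 4 of the 5 female LL libraries have shorter fragments than any female PP library.

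In males the Sod1 counts were 3728, 2500, 3502 and 2991 in PP and 3006, 4280, 3912 and 4128 in LL livers. The groups overlapped, with male LL 1 among the PP values. The LL genotype went with a log2 value of 0.27 ± 0.15 (SE) and an adjusted P of 0.515. The difference between the sexes in the response to genotype was 0.33 ± 0.21 (SE, adjusted P = 0.628), so that a larger Sod1 difference in females than in males was not shown. Erythroid markers (3 of 3 tested, 0 called in either genotype comparison), from cells rich in Sod1, Cat and Gpx1 protein, summed to 1005 to 1784 normalized counts in female PP and 894.4 to 5179 in female LL livers. The sums were 5179, 4289 and 3999 in female LL 1, 2 and 5, above all female PP livers, and 894.4 and 1145 in female LL 3 and 4, of which female LL 4 had the highest Sod1 count of the group and female LL 1 the next. The part of these markers in the Sod1 difference was not tested.

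The mitochondrial manganese enzyme Sod2 (chromosome 17, 13224095 to 13259591) was not a DEG. It ranged from 550.9 to 699.6 normalized counts in female PP and from 616.5 to 857.6 in female LL livers, a log2 fold change of 0.25 ± 0.11 (SE) with an unadjusted p of 0.0303 by DESeq2 and an adjusted P of 0.278. In males the log2 fold change was 0.13 ± 0.13 (SE, adjusted P = 0.783). Of its sequence, 26.2% of the words of 31 bases also occur in transcripts of other genes, so that its counts could be shared with them, whereas the share was 2.69% for Sod1 and 0% for Cat, Gpx1, Gclc, Txnrd1 and Hmox1.

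Cat (chromosome 2, 103284194 to 103316185) encodes catalase, the peroxisomal enzyme that splits hydrogen peroxide. Male PP livers had 12770, 12850, 13230 and 11120 normalized counts and female PP livers 9082, 9254, 10820, 10860 and 8905. All 5 female PP values lay below all 4 male PP values, as in 9.74% of all genes in that comparison (either direction). The log2 fold change of female PP against male PP mice was -0.35 ± 0.13 (SE), and the adjusted P of 0.0734 was above the threshold. It was below 0.05 under 5 of 30 alternatives, among them the fit of these groups alone (0.0168) and those without male LL 1 (0.039) or male LL 4 (0.0203), and on the TPM scale, where the median of all genes is shifted by 0.50, the sign turned to 0.32.

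In LL mice the Cat counts were 17210, 14970, 13770 and 10660 in males and 12170, 11080, 10580, 13650 and 10650 in females. Here male LL 4 lay within the female values and the groups overlapped. The log2 fold change of female LL against male LL mice was -0.28 ± 0.13 (SE, adjusted P = 0.175), and it was -0.40 with an adjusted P of 0.0182 without male LL 4. By genotype, the log2 fold change of Cat was 0.25 ± 0.12 in females (SE, unadjusted p = 0.0397, adjusted P = 0.304) and 0.18 ± 0.14 in males (adjusted P = 0.654), neither past the threshold.

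Gpx1 (chromosome 9, 108216102 to 108217546) encodes the selenium-containing glutathione peroxidase of the cytosol and mitochondria. Its 5 female LL values were the most spread of any group, at 6036, 4970, 4123, 7462 and 9370 normalized counts, against 5621, 6569, 6392, 5905 and 4924 in female PP livers. Female LL 3 was below and female LL 4 and 5 above all female PP livers. The log2 fold change was 0.12 ± 0.19 (SE, adjusted P = 0.821) in females and -0.28 ± 0.21 (SE, adjusted P = 0.656) in males, where PP livers had 5859, 6958, 5207 and 5676 and LL livers 4011, 6039, 5519 and 3983 counts. The interaction of 0.40 ± 0.28 (SE) had an adjusted P of 0.713.

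**Figure D3:**
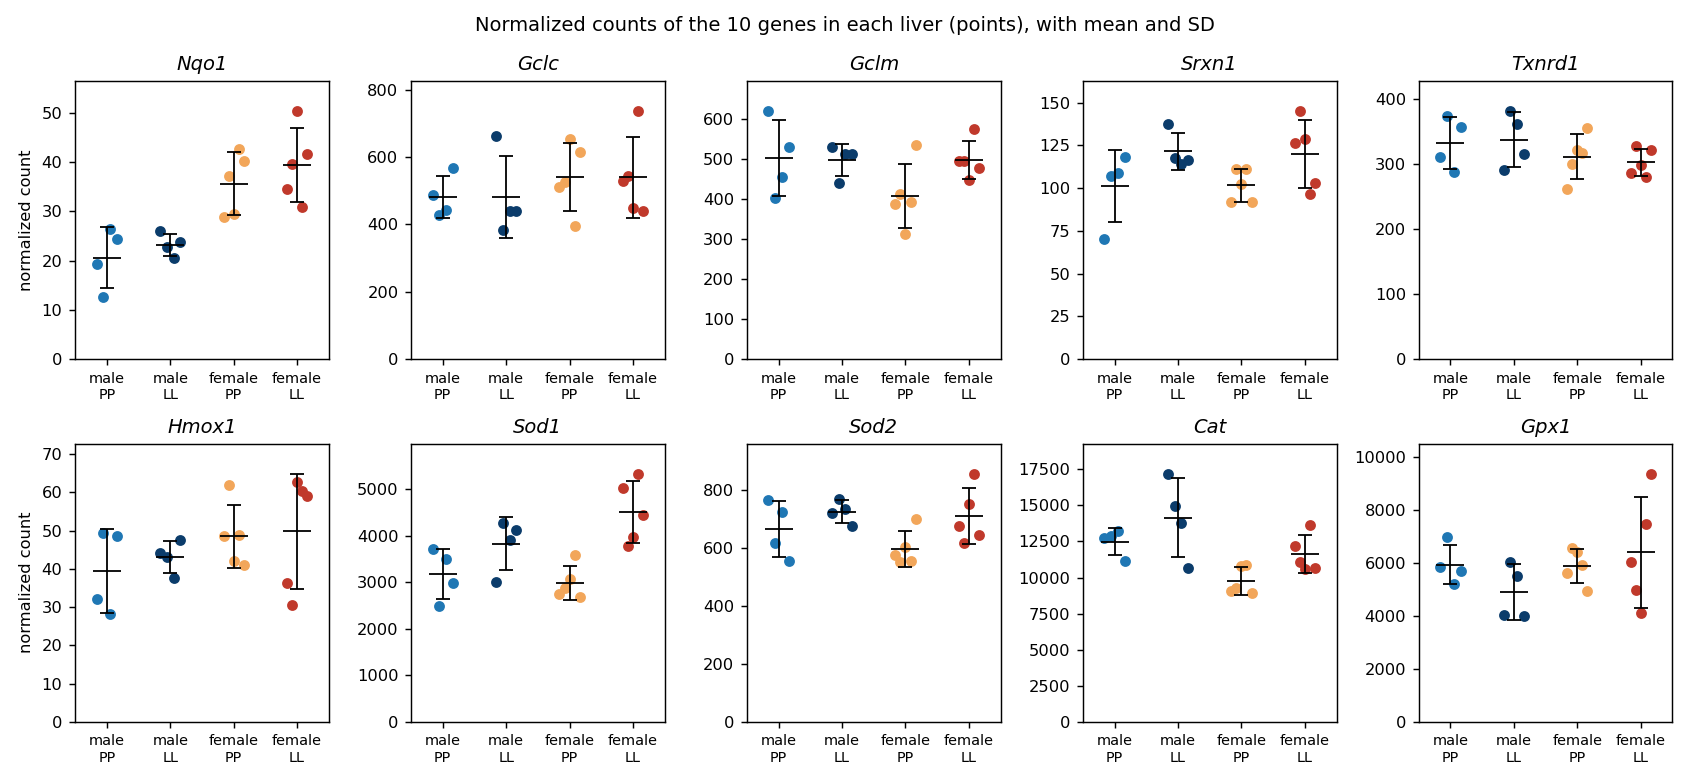
Normalized counts of the 10 genes in each liver (points), with the group mean and SD (bars), on linear axes from 0. Female LL values of Sod1 (3791 to 5343) lie above the female PP values (2680 to 3588), and the Nqo1 values of all 10 females (28.75 to 50.41) lie above those of all 8 males (12.59 to 26.32).

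Of the textbook NRF2 targets named above, only Nqo1 was a DEG, and only between the sexes. On the list of other NRF2 targets described below, Me1 in males and Fth1 in females were DEGs by genotype. Nqo1 (ENSMUSG00000003849, chromosome 8, 108113835 to 108129934) encodes a quinone reductase that uses NADH or NADPH and is a widely used marker of NRF2 activity. Normalized counts were 19.20, 12.59, 26.32 and 24.31 in male PP livers, 25.92, 22.78, 20.52 and 23.77 in male LL livers, then 28.75, 37.27, 29.37, 42.58 and 40.26 in female PP and 34.60, 39.52, 50.41, 30.85 and 41.58 in female LL livers. The lowest female value lay above the highest male value.

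Nqo1 exceeded the male PP level in female PP mice by 0.77 ± 0.26 on the log2 scale (SE, 95% interval 0.27 to 1.27, DESeq2 adjusted P = 0.0405) and was the only DEG of the 10 genes in this comparison (1 of 10, against 6.45% of all genes). It was higher in female LL than in male LL mice by 0.78 ± 0.25 (SE, adjusted P = 0.0351), again the only DEG of the 10 (1 of 10, against 6.12%). Groups did not overlap for 2 of the 10 genes, Nqo1 and Cat, in PP mice (9.74% of all genes) and for Nqo1 alone in LL mice (8.16%). An unadjusted p below 0.05 was reached by the same 2 genes in PP mice (17.5% of all genes) and in LL mice (20.0%). By genotype, the log2 fold change of Nqo1 was 0.16 ± 0.21 (SE, adjusted P = 0.794) in females and 0.15 ± 0.29 (SE) in males, where DESeq2 gave no adjusted P.

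The Nqo1 call stood close to the threshold. The direction was the same under all 30 alternatives in both sex comparisons (0.59 to 1.18 in PP and 0.67 to 0.85 in LL mice), but the adjusted P exceeded 0.05 in 12 of 30 in each, up to 0.235 without male PP 2 and up to 0.143 with the replicate number as a block. Among the fits that each left out 1 library, the PP call was lost in 7 of 18 (without male PP 1, 2 or 4, female PP 2, 4 or 5, or female LL 2, adjusted P of 0.0509 to 0.235) and the LL call in 7 of 18 (without any 1 of the 4 male LL libraries or female LL 2, 3 or 5, 0.0548 to 0.11). Markers of other cell types moved with sex. Of the stellate cell or fibroblast markers, 4 of 5 were tested and all 4 (Dcn, Lrat, Reln and Colec11) were DEGs and higher in the female PP group than in male PP livers, with summed normalized counts of 733.7 to 981.4 against 291.7 to 613.0. In LL mice 0 of the 4 were DEGs, where the sums were 447.9 to 969.2 for females and 529.9 to 824.3 for males. Of the endothelial markers, 2 of 5 (Clec4g and Oit3) were higher in female PP mice, with sums of 230.0 to 463.6 against 124.8 to 222.4, and 0 of 5 were called in LL mice. Of the 6 hepatocyte markers, Alb was higher and Serpina1c lower in female PP mice and Serpina1c was lower in female LL mice. Of the 6 Kupffer cell or macrophage markers, Vsig4 was higher in female LL mice, with sums of 460.3 to 741.1 for females and 365.7 to 687.1 for males. The part of these markers in the Nqo1 difference was not tested.

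Hmox1 (chromosome 8, 75820241 to 75827217) encodes heme oxygenase 1, which opens the heme ring to biliverdin and in liver is prominent in Kupffer cells. It ranged from 40.95 to 61.82 normalized counts in female PP and from 30.63 to 62.61 in female LL livers. The female LL values were split, with female LL 1 and 2 at 36.42 and 30.63 and the other 3 between 59.09 and 62.61. The log2 fold change was 0.04 ± 0.22 (SE, adjusted P = 0.957). In males it ranged from 28.20 to 49.31 in PP and from 37.48 to 47.53 in LL livers. The 6 Kupffer cell or macrophage markers, all tested and 0 of them called by genotype, summed to 769.1 to 951.0 normalized counts in female PP and 460.3 to 741.1 in female LL livers, with no overlap, and to 416.0 to 1070 in male PP and 365.7 to 687.1 in male LL livers.

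Gclc and Gclm encode the catalytic and modifier subunits of glutamate-cysteine ligase, the rate-limiting enzyme of glutathione synthesis. Gclc (chromosome 9, 77661797 to 77701770) had a log2 fold change of 0.00 by genotype in both sexes, with intervals of -0.35 to 0.34 in females and -0.39 to 0.39 in males. Gclm (chromosome 3, 122039126 to 122065061) ranged from 311.4 to 533.0 normalized counts in female PP and from 446.4 to 575.0 in female LL livers, a log2 fold change of 0.29 ± 0.14 (SE, unadjusted p = 0.0432, adjusted P = 0.316). In males the Gclm value was -0.01 ± 0.16 (SE). Neither subunit was a DEG by sex, with adjusted P of 0.749 (Gclc) and 0.286 (Gclm) in PP and 0.685 and 0.995 in LL mice.

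Srxn1 encodes sulfiredoxin, which repairs overoxidized peroxiredoxins, and Txnrd1 the cytosolic thioredoxin reductase. Srxn1 (chromosome 2, 151947436 to 151957687) had log2 fold changes of 0.25 ± 0.15 (SE, adjusted P = 0.421) in females and 0.24 ± 0.17 (SE, no adjusted P) in males. Its values ran from 91.62 to 111.4 in female PP, 96.25 to 145.2 in female LL, 70.40 to 117.9 in male PP and 114.2 to 137.4 in male LL livers, and overlapped within each sex. Txnrd1 (chromosome 10, 82669785 to 82733546) was the steadiest of the 10 genes, with a highest over lowest normalized count of 1.46 over the 18 libraries against 4.0 for Nqo1, and log2 fold changes by genotype of -0.04 ± 0.11 in females and 0.02 ± 0.13 in males (SE).

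As a group the 10 genes had a median log2 fold change of 0.20 in female LL against female PP mice (all genes 0.01). With an offset for average transcript length that median was 0.02, and on log2(TPM + 1) it was -0.07. Of the 10, 8 were positive, against 6 with the offset and 2 on the TPM scale. An unadjusted p below 0.05 was reached by 4 (Sod1, Sod2, Cat and Gclm), all higher, where 13.0% of all genes had such a p. The mean transcript lengths of these 4 were 647 bases for Sod1, 1007 for Gclm, 1425 for Sod2 and 2363 for Cat. In the bin of 800 to 1600 bases, where Gclm and Sod2 fall, the median of all genes was 0.11, and in the bin of 1600 to 2600 bases, with Cat, it was 0.01. For the genotype by sex interaction 0 of the 10 had an adjusted P below 0.05 by DESeq2 (0.119% of all genes) and 0 an unadjusted p below 0.05 (5.67% of all genes), and edgeR called 0.

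**Figure D4:**
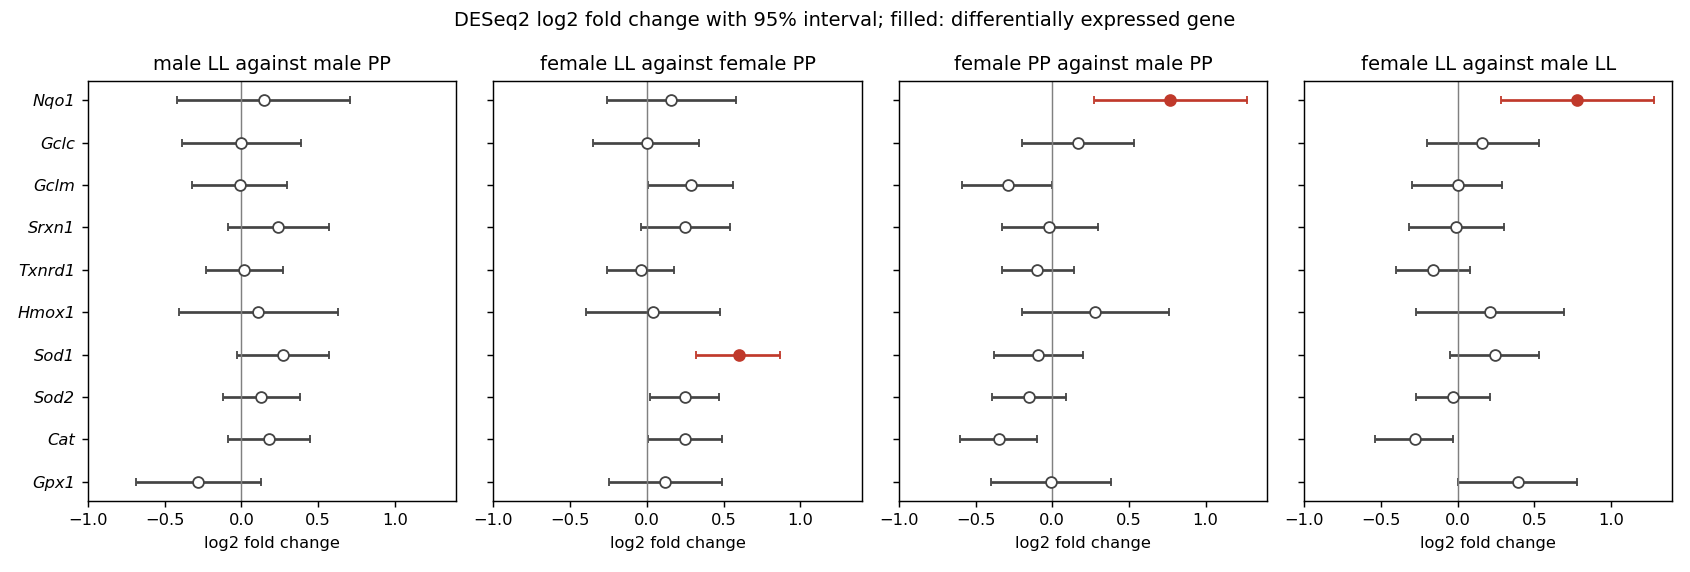
DESeq2 log2 fold changes of the 10 genes with 95% intervals in the 4 comparisons of groups, the first named group against the second. Filled points are DEGs, namely Sod1 in female LL against female PP mice (0.60) and Nqo1 in both comparisons of females with males (0.77 and 0.78).

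The pairs of genes showed little common variation from mouse to mouse. After the group means were subtracted, log2 normalized counts were compared between the 10 genes over the 18 libraries, which share the size factors. Of 45 pairs, 0 had a Pearson r above 0.5, and the median was -0.06. The highest r was that of Gclc and Gclm (0.39, Spearman rho 0.56), the subunits of 1 enzyme, and the lowest that of Srxn1 and Sod2 (-0.63, rho -0.52). These values are a description of these libraries and were not tested.

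**Figure D5:**
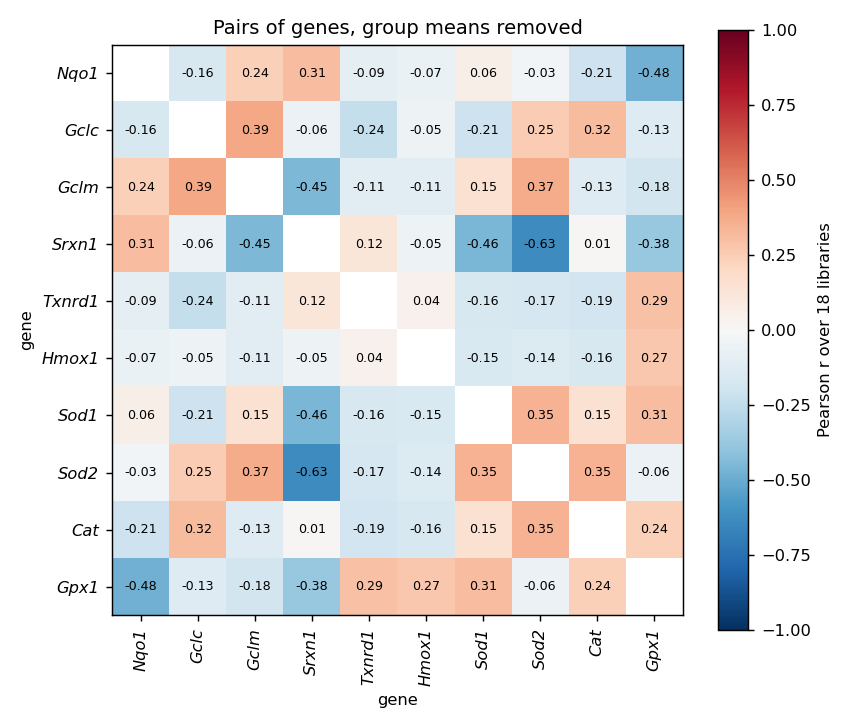
Pearson r between each pair of the 10 genes over 18 libraries, on log2 normalized counts with the group means removed. Values run from -0.63 (Srxn1 and Sod2) to 0.39 (Gclc and Gclm).

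For each gene, the 2 genes whose counts followed it most closely in the same way were taken from 5645 genes, those whose mean normalized count reached 50. For Sod1 these were Fuca1 and Mpc2 (r = 0.91 each), with mean transcript lengths of 621 and 582 bases, close to that of Sod1. For Gpx1 they were Naa80 and Apoe (0.92 each), for Cat Tmem243 (0.87) and Gphn (0.82), and for Sod2 Cipc (0.89) and Ptp4a1 (0.80). For Nqo1 they were Suox (0.80) and Col14a1 (0.77), and for Hmox1 Dapk1 (0.79) and Srrm2 (0.75). For Txnrd1 they were Znfx1 (0.88) and Srm (0.82), for Srxn1 Tbrg1 (0.82) and Zfp207 (0.81), for Gclc Evi5 and Dennd5b (0.82 each), and for Gclm Rassf3 (0.75) and Morf4l1 (0.73). Nqo1 and Hmox1, with mean normalized counts of 30.59 and 45.66, lay below 50 and could not be named for another gene. Of the remaining members of the 10, none was named for another member.

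Transcript use was examined for the 3 genes with a second transcript holding at least 10% of the count. Gclm-201, the full-length transcript, held 70.5% ± 3.6 of the Gclm count in male LL livers, and 59.9% ± 2.52 in the livers of male PP mice (SD, n = 4 each). The two-sided exact permutation p of 0.0286 is the lowest that 4 mice per group can give. Adjusted over the 6 tests the value was 0.171. In females the shares were 67.7% ± 5.15 and 64.6% ± 9.48 (SD, n = 5 each, exact permutation p = 0.54). Sod2-201 held 51.3% ± 8.22 in male LL livers and 39.9% ± 1.9 in those of male PP mice (exact permutation p = 0.0571, n = 4 each). Gpx1-204 showed no difference beyond the spread in either sex (exact permutation p = 0.171 in males, n = 4 each, and 0.873 in females, n = 5 each). Reads are divided between transcripts of a gene by a model, so these shares are less certain than the gene counts.

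The regulators of the pathway were measured next. Nfe2l2, which encodes NRF2, ranged from 154.8 to 200.6 normalized counts in female PP and from 207.9 to 311.0 in female LL livers, with no overlap (2.66% of all genes, either direction). The log2 fold change was 0.43 ± 0.13 (SE, unadjusted p = 0.00128), and the adjusted P of 0.077 missed the threshold. Of 30 alternatives 3 put it below 0.05, those without female LL 3, female LL 5 or male LL 1 (lowest 0.0439). The fits with fragment length as a term or with an offset for transcript length were not among them. In males it was 0.23 ± 0.16 (SE, adjusted P = 0.633). Keap1, its inhibitor, had values of 0.13 ± 0.14 in females and 0.11 ± 0.17 in males (SE, adjusted P = 0.732 and 0.895), and Bach1, the competing repressor, had -0.25 ± 0.21 in females (SE, adjusted P = 0.618) and -0.30 ± 0.23 in males (SE, no adjusted P). None of the 13 regulators was a DEG in the 4 comparisons of groups. The shares of all genes tested were 0.283% (male LL against PP), 0.658% (female LL against PP), 6.45% (female against male PP) and 6.12% (female against male LL). With 13 genes, 0 is near these shares.

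A further 107 genes of the same pathways were listed, of which 96 were tested. In male LL against male PP mice 13 of the 96 had an unadjusted p below 0.05 by DESeq2, 10 of them higher (7.81% of all genes). Groups did not overlap for 7 of the 96 (4.07% of all genes). On the list of other NRF2 targets, 8 of 28 tested had such a p, 6 of them higher. Of the 96, 1 was a DEG (0.283% of all genes tested). This was Me1, the cytosolic malic enzyme that supplies NADPH, with 412.3 to 657.6 normalized counts in PP and 582.3 to 1451 in LL livers and a log2 fold change of 1.02 ± 0.29 (SE, adjusted P = 0.0471). The groups overlapped, and 15 of 30 alternatives gave an adjusted P above 0.05 (edgeR 0.380), among them 8 of the 18 fits that each left out 1 library (any 1 of the 4 male PP libraries, male LL 1, 2 or 3, or female PP 5, with 0.0637 to 0.342). Of the Me1 sequence, 24.4% of the words also occur in other genes.

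In female LL against female PP mice 20 of the 96 had an unadjusted p below 0.05 by DESeq2, 15 of them higher (13.0% of all genes). Groups did not overlap for 5 of the 96 (2.66% of all genes). Here too 1 of the 96 was a DEG, near the share of 0.658% over all genes. This was Fth1, the ferritin heavy chain that stores iron, with 4738 to 6606 counts in PP and 7252 to 8850 in LL livers and a log2 fold change of 0.53 ± 0.12 (SE, adjusted P = 0.00224). Its mean transcript length is 624 bases, similar to that of Sod1, and with an offset for average transcript length the log2 fold change was 0.04 with an adjusted P of 0.98. The median log2 fold change in females was 0.11 over the 96 genes, whose median transcript length is 1468 bases. It was highest for 2 lists with short transcripts. These were the 16 thioredoxin and peroxiredoxin genes (0.21, 994 bases) and the 6 genes of superoxide dismutase partners and metal handling (0.44, 751 bases). It was 0.15 for other NRF2 targets, 0.11 for the glutathione system and 0.07 for heme breakdown. For NRF2 regulators and selenoprotein synthesis it was 0.03 each, and for peroxide and superoxide sources -0.04.

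More of the wider lists differed between the sexes than by genotype, as did more of all genes. In female PP against male PP mice 3 of the 96 were higher and 9 lower, where 6.45% of all genes were DEGs, and in female LL against male LL mice 1 was higher and 7 lower, where the share of all genes was 6.12%. Gstp1, a glutathione transferase of the pi class, ranged from 6968 to 13010 normalized counts in male PP and from 603.8 to 1224 in female PP livers, a log2 fold change of -3.61 ± 0.34 (SE, adjusted P = 2.87e-23), and it was -2.86 ± 0.34 in LL mice (SE, adjusted P = 2.81e-14). Of its sequence words 36.7% are shared, chiefly with Gstp2. Aox1, an aldehyde oxidase, was also lower in females, with log2 fold changes of -0.96 ± 0.18 in PP and -0.83 ± 0.18 in LL mice (SE), and so was Ugdh, the UDP-glucose dehydrogenase, in PP mice (-0.84 ± 0.15). Gsta1, a glutathione transferase of the alpha class, was lower in female LL mice (-2.34 ± 0.71, SE), and 91.9% of its sequence words are shared with other genes.

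Among enzymes that produce peroxide or superoxide, Hao2, a peroxisomal hydroxyacid oxidase, was at 0 in all 4 male PP livers and at most 1.199 normalized counts in male LL livers, whereas it ranged from 1.679 to 249.1 in female PP and from 40.06 to 270.0 in female LL livers. Nox4, an NADPH oxidase, was lower in females, with log2 fold changes of -1.79 ± 0.34 in PP and -1.60 ± 0.34 in LL mice (SE, adjusted P = 9.16e-06 and 0.000209). Acox3 was lower in female PP mice (-0.72 ± 0.16) and Hao1 in female LL mice (-0.89 ± 0.16). Of the heme breakdown list, Abcg2, a transporter of porphyrins and other substrates, was lower in females, with log2 fold changes of -1.43 ± 0.18 in PP and -1.26 ± 0.18 in LL mice (SE).

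The genotype by sex interaction gave 1 gene of the 96, where 0.119% of all genes tested had an adjusted P below 0.05 by DESeq2. An unadjusted p below 0.05 was reached by 7 of the 96, against 5.67% of all genes. Uox, the peroxisomal urate oxidase that makes hydrogen peroxide, ranged from 9851 to 11190 normalized counts in male PP and from 12530 to 16150 in male LL livers, and from 9766 to 13270 in female PP and 8402 to 11580 in female LL livers. The interaction on the log2 scale was -0.62 ± 0.16 (SE, DESeq2 adjusted P = 0.0245), with values of 0.38 ± 0.12 in males (adjusted P = 0.0923) and -0.25 ± 0.11 in females (adjusted P = 0.236), neither of which passed the threshold alone.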

How the data were processed

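RNA was extracted from 18 livers with Trizol, purified on columns with DNase digestion and, per the labels, sequenced where the RNA integrity number passed a limit. Per the submitters' processing notes FastQC and Salmon 1.4.0 were used, and the methods state GENCODE M26 transcripts (GRCm39) and no trimming. The authors deposited, for each library and 139225 transcripts, the estimated count, which is not scaled between libraries (90.8% of values above 0 are not whole), and the TPM, which is scaled to 1 total. The deposited length and effective length gave the fragment length of a library (median difference over transcripts of at least 3000 bases).

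Through GENCODE M39, 137570 transcripts were joined to 52230 genes (at the lowest 99.76% of counts, with 1655 transcripts left out), and counts were summed per gene and rounded. Total counts of 3794671 to 6613905 limit the precision of low genes. DESeq2 1.42.0 (R 4.3.3, Wald test, Benjamini-Hochberg over genes tested) was run in 1 fit of 18 libraries with the 4 groups as levels, as the methods of the study use DESeq2. Adjusted P left empty by independent filtering stayed empty. Alternatives used edgeR 4.0.16 (quasi-likelihood), limma 3.58.1 on log2(TPM + 1), other filters, normalization, terms and samples, and edgeR with a length offset, the last chosen after seeing the data. The main DESeq2 fit was tested on simulated data with known changes, for the genotype comparison within each sex only. The alternatives were not tested in this way. Single values were compared with exact permutation tests in SciPy 1.17.1.

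The 10 genes, the pathway lists and the marker lists were chosen with earlier results of these data known. Named besides the 10 were pathway DEGs by genotype, the 3 largest per list by sex, and Nfe2l2, Keap1 and Bach1. Likeness took the 2 genes of highest r. The 11 pathway genes below the filter (Abcc4, Cbr3, Chac1, Dao, Ggt1, Gpx2, Gpx3, Gpx7, Gpx8, Lrp8 and Slc7a11) were not tested. Within groups, all pairs of libraries differed by more than sampling noise (chi-square per degree of freedom of 12.3 to 107), and none was treated as a repeat.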

Additional observations from a re-analysis of the deposited data

Results flagged for a closer look

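In groups of 4 or 5 mice, each of the 10 genes and their main transcripts was examined for a library far from the others of its group, and 2 of 72 groups had one, where chance gives about 1 in 20. The Srxn1 normalized count was highest in male LL 1, at 137, against 114.2 to 117.5 in the other 3 male LL livers. The share of the Gpx1 count on the transcript Gpx1-204 was 0% in female PP 3, against 57.4% to 76.3% in the other 4 female PP livers, while its Gpx1 gene count of 6392 lay within the range of its group. This library had the longest fragments, at 631.0 bases, and male PP 4, at 629.7 bases, had a share of 74.5%.

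The response of Uox to genotype differed between the sexes by -0.62 on the log2 scale (DESeq2 adjusted P = 0.0245). The adjusted P was above 0.05 in 19 of 29 alternatives, with a range of 0.0113 to 0.885, among them 11 of the 18 fits that each left out 1 library (any 1 of the 4 male PP libraries, male LL 1 or 4, female PP 2, 3 or 4, or female LL 1 or 4).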

How the results depend on the processing

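There were 30 alternatives (29 for the interaction). They changed 1 choice at a time, apart from edgeR, which came with TMM factors or with the transcript length offset, and limma, which came with the TPM scale. Sod1 in females and Nqo1 in both sex comparisons kept their direction in all 30. Members called in female LL against female PP mice fell from 1 to 0 with edgeR, fragment length as a term, the average transcript length as an offset, limma on log2(TPM + 1), and edgeR with that offset, and the pathway DEGs fell from 1 to 0 with the same 5. Over all genes tested, calls in this comparison were 72 in the main fit. They were 3 with edgeR, 14 with the fragment term, 28 with the offset, and 0 with limma on TPM and with edgeR and the offset. Members called in female PP against male PP mice fell from 1 to 0 without the filter on low counts, with the groups of the comparison alone, the replicate block, the fragment term and edgeR with the offset, and were 6 with limma on TPM, where pathway DEGs were 41 against 12. Of all genes, limma on TPM called 39.4%, against 6.45% in the main fit and 2.91% to 6.95% in the fits with 0 members called. Pathway DEGs in that comparison were 7 with edgeR and the offset, which called 3.31% of all genes. Members called in female LL against male LL mice fell from 1 to 0 with the groups alone, the replicate block, the fragment term and both offsets. In those fits 1.66% to 4.75% of all genes were called, against 6.12% in the main fit. In male LL against male PP mice the pathway DEGs were 1, and were 2 with the groups alone and with the replicate block, and 0 with edgeR, without the filter, without independent filtering, with the fragment term, with both offsets and with limma on TPM. Over all genes, calls in males were 31 in the main fit, 3 with edgeR, 2 with edgeR and the offset and 0 with limma on TPM. They were 30 to 53 in the other fits with 0 pathway DEGs. The interaction of pathway genes fell from 1 to 0 with edgeR, without independent filtering, and with the block, age, the fragment term, both offsets and limma on TPM. Over all genes the interaction was called for 13 in the main fit and for 0 with edgeR, edgeR and the offset, and limma on TPM. The other fits named here called 8 to 18.

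Leaving out each library in turn, members called ranged from 0 to 1 in female LL against female PP and in both sex comparisons and stayed at 0 in male LL against male PP and for the interaction. Pathway DEGs ranged from 0 to 2 in males, from 1 to 3 in females, from 11 to 13 and from 6 to 10 between the sexes in PP and LL mice, and from 0 to 1 for the interaction. Over all genes, calls in these fits ranged from 20 to 60 in males and from 28 to 270 in females. Between the sexes they ranged from 548 to 740 in PP and 463 to 807 in LL mice, and for the interaction from 3 to 27. The Gclm-201 difference in share ranged from 9.13 to 11.9 percentage points in males and 0.362 to 6.79 in females, that of Sod2-201 from 8.50 to 14.5 and -0.0147 to 3.91, and that of Gpx1-204 from 6.37 to 15.1 and -6.64 to 12.4. As shares of TPM, Gclm-201 differed by 4.23 points in males (exact permutation p = 0.171) and Sod2-201 by 3.33 points in females (exact permutation p = 0.0476).

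On log2(TPM + 1) the sign turned between female PP and male PP mice, where the median of all genes was 0.50, for all 7 of the 10 genes that were below 0, namely Srxn1 (0.98), Gpx1 (0.70), Sod2 (0.62), Sod1 (0.56), Gclm (0.40), Txnrd1 (0.40) and Cat (0.32), and for Fth1 (1.01). By genotype in females it turned for Fth1 (-0.06) and for 6 of the 10 genes (Nqo1, Gclm, Srxn1, Hmox1, Sod2 and Gpx1, from -0.19 to -0.01), in males for 3 (Gclc, Gclm and Gpx1), and between female LL and male LL mice for 4 (Gclm, Srxn1, Txnrd1 and Sod2). Of 1595 alternative values of the 10 genes, Me1 and Fth1 with no call in either fit, 163 had another sign. The replicate numbers in the labels name mice only. Deviations of same-numbered mice correlated from -0.198 to 0.156, with 1 of 9 pairs the best match of its own number, and in the fit with the replicate block Nqo1 was at 0.76 (adjusted P = 0.151) in PP and 0.74 (0.143) in LL mice. Depth limits Nqo1 and Hmox1, at 12 to 62 and 20 to 77 counts per library. The cause of the changes across alternatives was not tested.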
